A study of Mus musculus with 46 samples.

Results

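The genes described here are the 7 skeletal myosin heavy chains *Myh1*, *Myh2*, *Myh3*, *Myh4*, *Myh7*, *Myh7b* and *Myh8*. They were chosen by gene symbol through the Ensembl identifiers of the count tables, and all 7 were found among the 17514 genes of the gastrocnemius table and among the 16987 genes of the spinalis table. Mouse muscle RNA was sequenced in 2 experiments that crossed an *Actn3* knockout (KO) with the removal or the addition of androgen. Every mouse was of the C57BL6 strain, and each experiment held wild-type (WT) and KO mice, with 45 libraries analysed of 46 labelled samples. The labels do not say that each library came from a separate animal, so the replicates are called libraries.

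In the first experiment males aged 8 to 10 weeks were orchidectomised (ORX, removal of the testes) or sham-operated, and their gastrocnemius was taken 12 weeks later. Its groups were WT-sham (6 libraries), WT-ORX (6), KO-sham (6) and KO-ORX (5, with a sixth labelled sample not analysed here). In the second, females aged 4 to 5 weeks received a silastic implant that was empty or held 10 mg of dihydrotestosterone (DHT, an androgen), and their spinalis, a back muscle, was taken after 6 weeks. Its groups were WT-DHT (6), WT-empty (5), KO-DHT (6) and KO-empty (5). Total counts per library were between 26653932 and 55369921 in gastrocnemius, with group medians of 47.1 M (WT-sham), 45.6 M (WT-ORX), 34.3 M (KO-sham) and 41.6 M (KO-ORX). In spinalis they were between 34812381 and 53899279, with group medians of 47.0 M (WT-empty), 52.0 M (WT-DHT), 44.1 M (KO-empty) and 44.2 M (KO-DHT). Muscle, sex, age and treatment all differ between the experiments, so their parts in any difference between the tables cannot be told apart.

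A myosin heavy chain is the motor protein of the thick filament, and the isoform that a fibre makes sets how fast it shortens and how much energy it spends. Adult limb fibres are named after their isoform, from slow type 1 over the fast types 2A and 2X to the fastest type 2B, while the embryonic and perinatal isoforms are made by developing and regenerating fibres. Fast and developmental genes sit side by side in 1 cluster, the slow gene lies elsewhere, and androgens and the loss of alpha-actinin-3, a Z-disc protein of fast fibres, are both known to bear on the metabolism and size of fast fibres.

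The genotype labels were checked first with *Actn3*, the gene that the knockout targets. Counts of *Actn3* were between 271459 and 344665 in WT-sham, between 334134 and 522718 in WT-ORX, between 1301 and 1653 in KO-sham and between 1051 and 2702 in KO-ORX. Spinalis held 357573 to 518011 counts in WT-empty, 222975 to 393368 in WT-DHT, 2643 to 3913 in KO-empty and 2133 to 3407 in KO-DHT. No KO library came near any WT library, and the log2 fold changes of KO against WT were -7.18 (sham), -7.61 (ORX), -7.12 (empty) and -6.71 (DHT), with standard errors (SE) of 0.12, 0.13, 0.12 and 0.11. Treatment also moved *Actn3* itself in WT muscle, where its log2 fold change was 0.42 (SE 0.09) after ORX and -0.44 (SE 0.09) with DHT.

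Levels of the 7 genes are given as CPM per kb, which are counts scaled to the effective size of each library (edgeR's CPM with TMM scaling between libraries) and divided by the length of the merged exons in kb. This is the only scale on which levels of different genes are compared. Merged exons exceeded the longest transcript most for *Myh8* (11772 against 6149 bases) and *Myh7* (8616 against 6230), and were equal for *Myh4* (6016). Levels of *Myh8* and *Myh7*, and the *Myh7* share, are therefore lower here than with transcript lengths. Comparisons of a gene with itself between groups do not depend on the length. Where libraries are counted above or below the mean of a group, the mean and the libraries are in log2 CPM, or in percent for shares. The tables were normalized separately, so levels in gastrocnemius and spinalis are set side by side without a test. Both muscles were dominated by *Myh4*, the fast 2B isoform, whose group medians were between 6973 and 8035 CPM per kb in gastrocnemius and between 10847 and 13265 in spinalis. *Myh1* (the fast 2X isoform) ranked 2 of 7 and *Myh2* (the fast 2A isoform) 3 of 7 in every group. On that scale the median of *Myh4* was between 13.3 times (KO-empty) and 27.0 times (WT-ORX) that of *Myh1*. *Myh7*, the slow type 1 isoform, ranked 4 of 7 and *Myh3*, the embryonic isoform, 5 of 7 in all 8 groups by CPM per kb. *Myh7b*, an ancient member of the family with a microRNA in an intron, and *Myh8*, the perinatal isoform, were lowest on this scale. In spinalis the order of *Myh7b* and *Myh8* depends on the length used. Together the 7 genes took a median of 4.64% (KO-sham) to 5.08% (WT-sham) of all counts in gastrocnemius and of 7.38% (KO-DHT) to 8.65% (WT-empty) in spinalis.

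**Figure D1:**
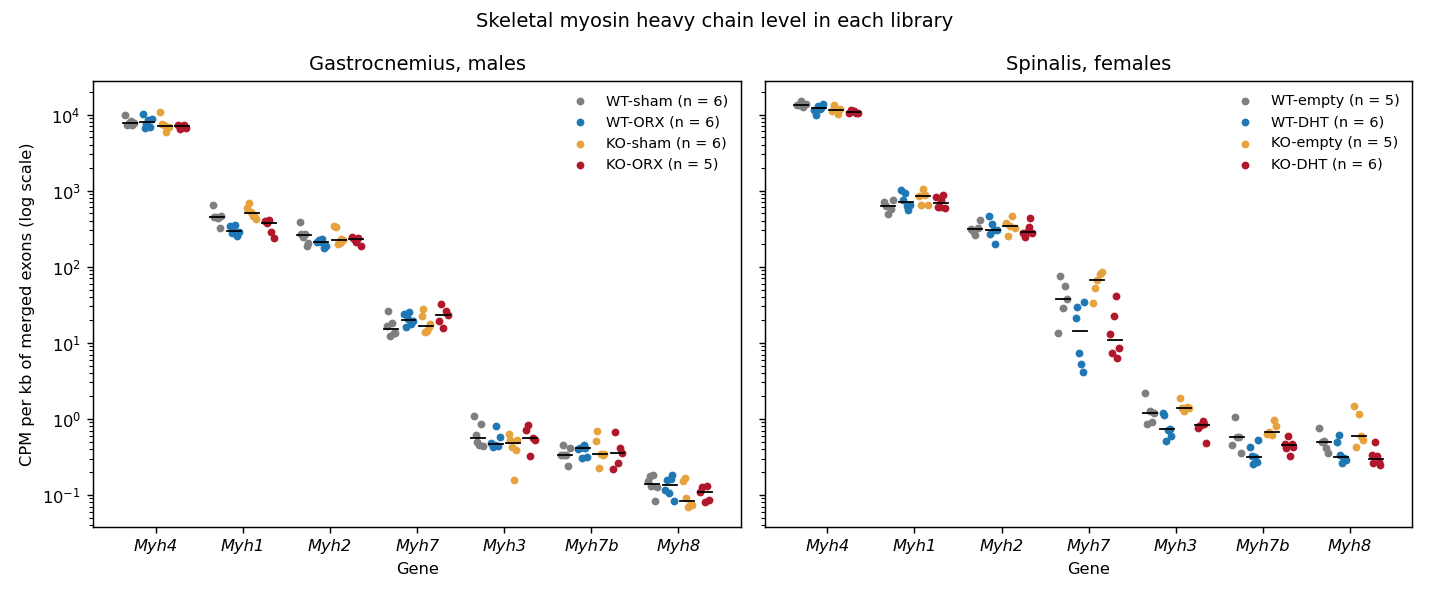
Level of each skeletal myosin heavy chain in each library, in CPM per kb of merged exons on a log scale. Points are libraries and bars are group medians.

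Spread among libraries set the genes apart as well. *Myh4* spanned 1.81 times from its lowest to its highest library in gastrocnemius and 1.51 times in spinalis. *Myh7* spanned 2.60 times in gastrocnemius but 20.4 times in spinalis, the widest range of the 7 genes in either muscle. *Myh3* spanned 7.05 times and 4.596 times, and *Myh8* 2.60 times and 5.96 times, in gastrocnemius and spinalis. The developmental isoforms and *Myh7b* rested on few counts, between 29 and 282 per library in gastrocnemius and between 53 and 811 in spinalis.

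Removal of androgen in males touched the 2X isoform. *Myh1* was between 317.6 and 640.3 CPM per kb in WT-sham (median 454) and between 249.97 and 349.9 in WT-ORX (median 297). In KO-sham it was between 419 and 680.3 (median 503), and KO-ORX libraries 1 to 5 held 401, 374, 414, 288 and 238 CPM per kb. The KO groups did not overlap, and 4 of 6 WT-ORX libraries lay below the lowest WT-sham library, WT-sham 5. The log2 fold change of ORX was -0.61 (SE 0.14) in WT, or 65.6% of sham, with an adjusted p of 0.0050 by edgeR's quasi-likelihood test (Benjamini-Hochberg), and all 6 WT-ORX libraries lay below the sham mean. KO muscle gave -0.61 (SE 0.15), or 65.4% of sham, with an adjusted p of 0.0074 by edgeR's quasi-likelihood test (Benjamini-Hochberg), and all 5 KO-ORX libraries lay below the sham mean. The difference between the genotypes (the interaction) was -0.00 (SE 0.20), p 0.984 before adjustment. Whether bulk RNA of this kind holds fewer fibres with an isoform or less of its RNA per fibre cannot be told apart, here and in all results that follow.

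*Myh1* was the 1 member of 7 past the threshold (an adjusted p at or under 0.01) in each genotype, where 5.45% of all genes passed after ORX in WT (955 genes, 358 higher and 597 lower) and 5.57% in KO (975 genes, 348 higher and 627 lower). A share of 1 in 7 on so few genes is not read as more than that background, and the result is about *Myh1* alone. DESeq2 and limma-voom, run as other tools, also called *Myh1* and no other member in both genotypes. Of all genes DESeq2 called 1254 of 17512 in WT and 1366 of 16493 in KO, and limma-voom 1026 and 850 of 17514. Over 31 settings the adjusted p for WT by edgeR's quasi-likelihood test (Benjamini-Hochberg) or the other tools was between 0.00049 and 0.0199, past the threshold in 26. It missed the threshold without WT-sham 1 (0.0199), WT-ORX 2 (0.0128), WT-ORX 3 (0.0103), WT-ORX 5 (0.0151) or WT-ORX 6 (0.0127), each left out alone. For KO it was between 0.00044 and 0.0308, past the threshold in 23 of 31 by edgeR's quasi-likelihood test (Benjamini-Hochberg) or the other tools, and missed it without KO-sham 1 (0.0169), KO-sham 2 (0.0247), KO-sham 3 (0.0144), KO-ORX 2 (0.0113), KO-ORX 4 (0.0296) or KO-ORX 5 (0.0308). Scaling by library size alone (0.0114) and a fit of the KO groups alone (0.0142) also ended the call in KO. KO-sham 1 stood apart from its group, with a mean chi-square per gene of 47.5 to 143 from the other 5 libraries, against 10.3 to 48.3 among those, and it held the highest *Myh4* of the gastrocnemius table (10746 CPM per kb). Why it differs was not tested. In all 31 settings *Myh1* stayed lower after ORX, with log2 fold changes between -0.69 and -0.49 in WT and between -0.69 and -0.51 in KO.

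**Figure D2:**
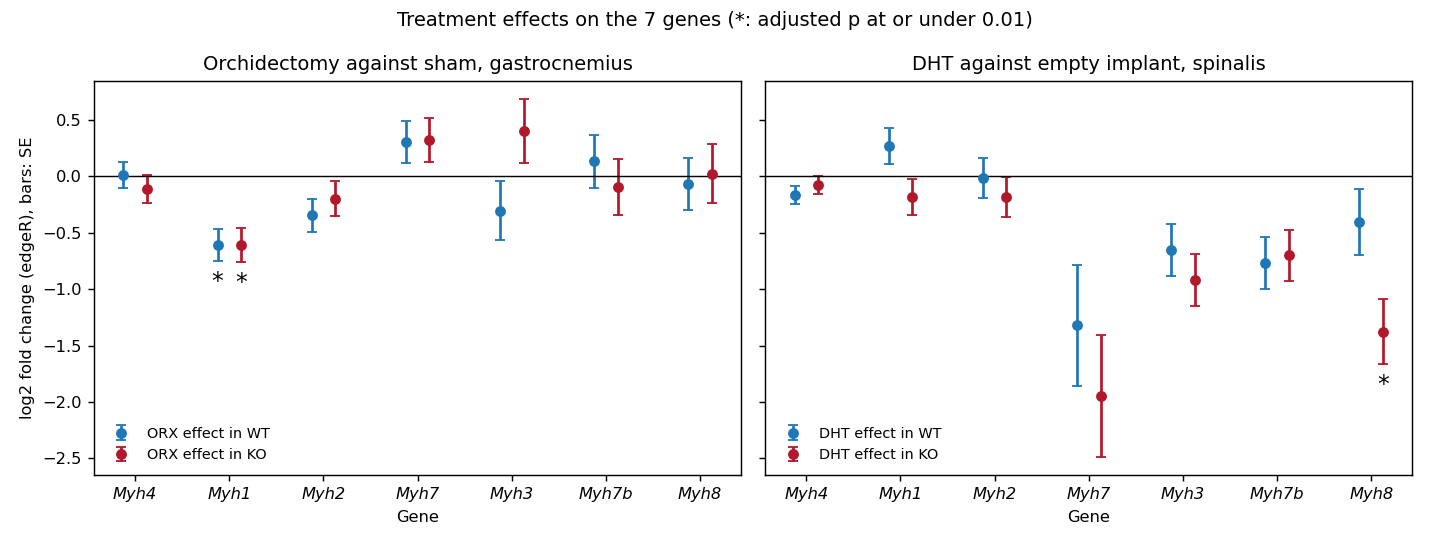
Log2 fold change of each gene for each treatment and genotype, with SE, from edgeR. Stars mark an adjusted p at or under 0.01.

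The other fast isoforms did not pass. *Myh2* was between 184.9 and 392 CPM per kb in WT-sham (median 257) and between 175 and 231 in WT-ORX (median 209), groups that overlapped, although all 6 WT-ORX libraries lay below the sham mean. Its log2 fold change was -0.35 (SE 0.14) in WT, unadjusted p 0.0245 and adjusted p 0.146 by edgeR's quasi-likelihood test (Benjamini-Hochberg), and -0.20 (SE 0.15) in KO, where all 5 KO-ORX libraries lay below the sham mean. Without WT-sham 1 the WT value was -0.19, adjusted p 0.427 by edgeR's quasi-likelihood test (Benjamini-Hochberg). The KO value was -0.10 without KO-sham 1, -0.11 without KO-sham 2 and -0.09 with scaling by library size. *Myh4*, the most abundant isoform, was between 7246 and 9972 CPM per kb in WT-sham and between 6625 and 10235 in WT-ORX. In KO-sham it was between 5944 and 10746, and the KO-ORX libraries held 7239, 6388, 7032, 7200.4 and 6692. Those ranges lay over each other in both genotypes, and the log2 fold changes were 0.01 (SE 0.11) in WT and -0.11 (SE 0.12) in KO. By mean log2 CPM the order for *Myh1* was KO-sham, WT-sham, KO-ORX and WT-ORX, and neither step between genotypes passed the test. For *Myh4* the order was WT-ORX, WT-sham, KO-sham and KO-ORX, and no pair of neighbours that was tested differed past the threshold.

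How the fast isoforms divide the total was read from shares, each isoform's counts per kb as a percentage of the sum over *Myh7*, *Myh2*, *Myh1* and *Myh4* in the same library. A share does not depend on the scaling between libraries. The *Myh1* share was 5.81, 5.70, 5.39, 4.85, 4.08 and 5.47% in the WT-sham libraries 1 to 6 and 3.13, 3.86, 3.76, 3.85, 3.45 and 3.16% in the WT-ORX libraries 1 to 6. These groups did not overlap. Their means were 5.22% and 3.53%, a difference of -1.68 points (SE 0.30), with p 0.0022 in an exact permutation test, the smallest that 924 regroupings can give. In KO the mean *Myh1* share was 6.43% in sham and 4.57% after ORX, a difference of -1.86 points (SE 0.60), exact permutation p 0.0195, with all 5 KO-ORX libraries below the sham mean.

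The *Myh4* share lay the other way. Shares of a library sum to the whole, so this rise is the other side of the lower *Myh1* and *Myh2* shares. It is no separate result, and in every comparison the share tests are not independent of each other. Its mean was 91.6% in WT-sham and 93.8% in WT-ORX, a difference of 2.15 points (SE 0.53) with exact permutation p 0.0065, and 90.3% and 92.2% in KO, a difference of 1.898 points (SE 0.75) with exact permutation p 0.0325. That share was above the sham mean in 6 of 6 WT-ORX and 5 of 5 KO-ORX libraries, while the level of *Myh4* was below the sham mean in 3 of 6 WT-ORX and 5 of 5 KO-ORX libraries. After Benjamini-Hochberg adjustment over all 32 share tests of both muscles 0 exact permutation tests passed 0.05 (smallest adjusted p 0.0693, 10 tests with an unadjusted p under 0.05), so each share difference is a description. The test of the *Myh1* share in WT was already at the smallest p possible, so no single test could pass alone after this adjustment. Without WT-sham 2, or without WT-sham 5, the adjusted exact permutation p of the *Myh1* share in WT was 0.0346 (difference -1.59 or -1.91 points). Without WT-sham 5 that of the *Myh4* share in WT was 0.0346 too, with a difference of 2.50 points. In both settings the *Myh1* test stayed at the smallest p possible. Its adjusted p fell because another share test reached that p as well, *Myh7* without WT-sham 2 and *Myh4* without WT-sham 5. So these values add nothing on *Myh1* itself.

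**Figure D3:**
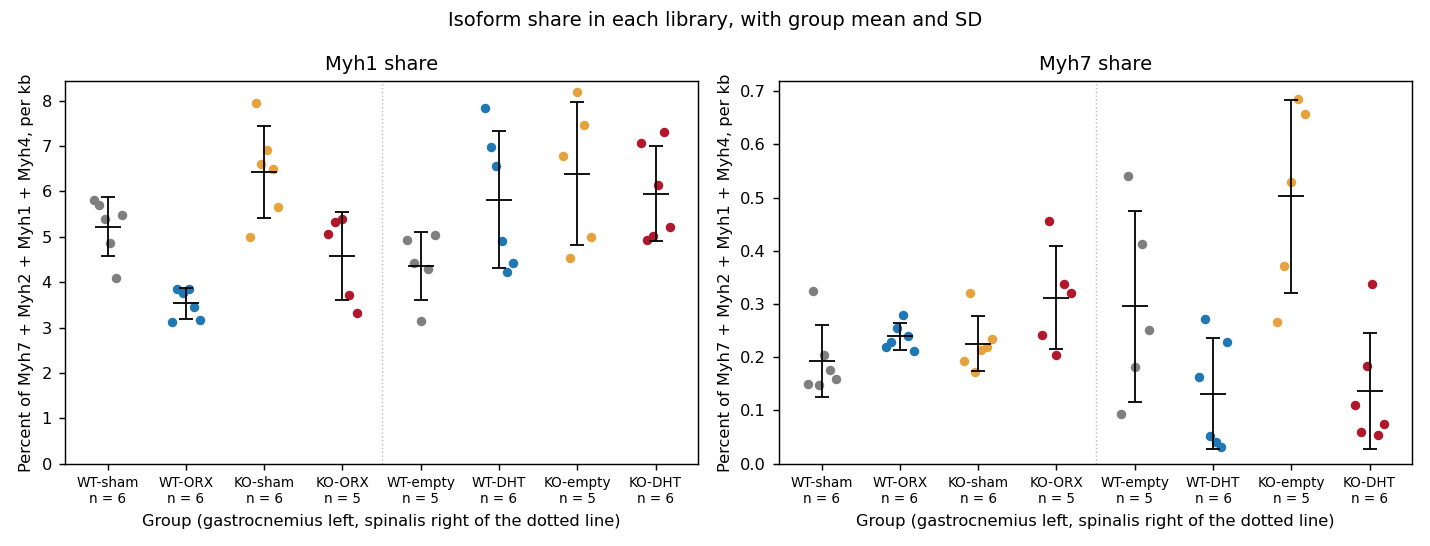
Share of Myh1 and of Myh7 in the sum of 4 adult isoforms per kb, in each library, with the group mean and SD.

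Slow and developmental isoforms showed no call in gastrocnemius. *Myh7*, which slow fibres use, was between 12.3 and 26.0 CPM per kb in WT-sham (median 15.0) and between 16.3 and 25.3 in WT-ORX (median 19.98). In KO-sham it was between 13.6 and 27.5 (median 16.8), and KO-ORX libraries held 19.1, 31.97, 15.7, 26.1 and 22.8. In log2 CPM all 6 WT-ORX libraries and 4 of 5 KO-ORX libraries lay above their sham mean, and in CPM per kb 5 of 6 and 4 of 5 did. Both pairs of groups overlapped. The log2 fold changes were 0.30 (SE 0.19) in WT and 0.32 (SE 0.19) in KO, with adjusted p 0.365 and 0.329 by edgeR's quasi-likelihood test (Benjamini-Hochberg). Without WT-sham 2 the WT value was 0.47, and without KO-ORX 2 the KO value was 0.18. Its mean share was 0.193% in WT-sham and 0.239% in WT-ORX (exact permutation p 0.154), and 0.225% and 0.312% in KO (exact permutation p 0.0801). WT-sham 2 held the highest *Myh7* share of its group, and without it the WT difference was 0.072 points with an adjusted exact permutation p of 0.0346. *Myh3*, *Myh8* and *Myh7b* overlapped between sham and ORX in both genotypes, from 0.155 to 1.10, from 0.0703 to 0.182 and from 0.221 to 0.689 CPM per kb over all gastrocnemius libraries.

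Loss of *Actn3* left every member under the threshold in gastrocnemius. In sham muscle edgeR's quasi-likelihood test called 0 of 7 members, against 5.3% of all genes (928), with 1 member (*Myh3*) and 23.3% of all genes at an unadjusted p under 0.05, and DESeq2 and limma-voom also called 0, with 0 and 1 at that level. *Myh3* was between 0.434 and 1.10 CPM per kb in WT-sham (median 0.551) and between 0.155 and 0.627 in KO-sham (median 0.479), and the groups overlapped. KO against WT gave a log2 fold change of -0.57 (SE 0.27), adjusted p 0.1999 by edgeR's quasi-likelihood test (Benjamini-Hochberg), with 5 of 6 KO libraries below the WT mean in log2 CPM and 6 of 6 in CPM per kb. Without WT-sham 1 it was -0.37, adjusted p 0.452 by edgeR's quasi-likelihood test (Benjamini-Hochberg), and KO-sham 4 held the lowest level of its group by far. After ORX edgeR's quasi-likelihood test called 0 members against 3.8% of all genes (666, 188 higher and 478 lower), with 0 at an unadjusted p under 0.05 by it, DESeq2 or limma-voom. For the interaction of genotype and ORX, at an adjusted p at or under 0.05, it called 0 members against 0.0228% of all genes (4 genes), with 0 members at an unadjusted p under 0.05 by any of the 3 tools. The *Myh1* share was larger in KO than in WT sham muscle by 1.21 points (exact permutation p 0.0325, 5 of 6 KO libraries above the WT mean). Among the ORX groups KO differed by 1.04 points for *Myh1* (exact permutation p 0.0455), 0.51 points for *Myh2* (p 0.0390) and -1.62 points for *Myh4* (p 0.0281), none past 0.05 after adjustment.

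In females given DHT 1 member passed, *Myh8* in KO, and the slow and developmental isoforms are given first. Of the 7 members, 6 in WT and 7 in KO had a negative log2 fold change, with a median of -0.40 in WT and -0.70 in KO beside medians of all genes of -0.01 in both. Past an adjusted p of 0.01, edgeR's quasi-likelihood test called 0 members in WT against 11.3% of all genes (1914, 1126 higher and 788 lower), with 3 members and 29.8% of all genes at an unadjusted p under 0.05. In WT DESeq2 called 1 (*Myh7b*) beside 2301 of 16956 genes, and limma-voom 0 beside 1919 of 16987. In KO edgeR's quasi-likelihood test called 1 member (*Myh8*) against 4.62% of all genes (784), with 4 members and 25.2% of all genes at an unadjusted p under 0.05. There DESeq2 called 2 (with *Myh3*) beside 1201 of 16956 genes, and limma-voom 3 (with *Myh3* and *Myh7*) beside 726 of 16987. At an adjusted p of 0.05 the counts were 2 members in WT against 18.1% of all genes (3078) and 4 in KO against 10.8% (1840). The WT count is near its background and is not a result about the members, and the KO count at 0.05 rests on 7 genes only and includes *Myh7b*, whose call at 0.05 was lost in 15 of 29 settings. Neither count was tested against its background.

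Libraries differed among themselves in 3 of the spinalis groups. The mean chi-square per gene between WT-DHT 39KR and each of 15KR, 5KR, 8KR and 34KR was between 560.7 and 630.5, against 20.8 to 42.5 among those 4. WT-DHT 50KR lay between 284.7 and 378.8 from the same 4 and at 130.9 from 39KR. WT-DHT 39KR had the lowest total of the spinalis table (34812381 counts), and its 10 most abundant genes took 43.2% of its counts, the largest share there. In KO-DHT, 16KR lay at 269.5 from 6KR and 261.6 from 25KR, and 6KR and 25KR lay between 111 and 177.4 from 40KR, 65KR and 63KR, against 32.03 between 6KR and 25KR and 24.6 between 65KR and 63KR. Among the WT-empty libraries 14KR lay at 187 from 4KR and 151 from 7KR, and 4KR at 140 from 49KR and 114 from 35KR, while 14KR lay at 50.02 and 54.7 from 49KR and 35KR, and 4KR at 42.4 from 7KR. The KO-empty libraries lay between 31.9 and 88.4 from each other. Why libraries differ was not tested. The *Myh8* call in KO held without any 1 KO-DHT library. Without WT-DHT 39KR *Myh7*, *Myh7b*, *Myh3* and *Myh8* in WT had log2 fold changes of -1.12, -0.71, -0.63 and -0.36, with adjusted p 0.163, 0.0454, 0.0788 and 0.494 by edgeR's quasi-likelihood test (Benjamini-Hochberg).

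*Myh8*, the perinatal isoform, carried the call. Its KO-empty libraries held 1.47 (17KR), 0.431 (33KR), 1.17 (64KR), 0.595 (61KR) and 0.524 (62KR) CPM per kb, and KO-DHT lay between 0.247 and 0.492 (median 0.296). Thus 5 of 6 KO-DHT libraries were below the lowest KO-empty library, and 2 KO-empty libraries, 17KR and 64KR, stood well above the other 3. The log2 fold change was -1.38 (SE 0.29), adjusted p 0.0031 by edgeR's quasi-likelihood test (Benjamini-Hochberg), with 6 of 6 KO-DHT libraries below the empty mean. Over 29 settings its adjusted p was between 0.00051 and 0.0165 and past 0.01 in 26. It missed that in a fit of the KO groups alone (0.0113) and, by edgeR's quasi-likelihood test (Benjamini-Hochberg), without KO-empty 17KR (log2 fold change -1.08, adjusted p 0.0165) or KO-empty 64KR (-1.23, 0.0122). In WT the empty libraries held 0.767 (14KR), 0.491 (4KR), 0.512 (7KR), 0.416 (35KR) and 0.358 (49KR), and WT-DHT lay between 0.266 and 0.611 (median 0.318), so these groups overlapped. The WT log2 fold change was -0.40 (SE 0.29), adjusted p 0.387 by edgeR's quasi-likelihood test (Benjamini-Hochberg), and -0.22 without WT-empty 14KR. The interaction, -0.97 (SE 0.41), had an unadjusted p of 0.0262 and an adjusted p of 0.247 by edgeR's quasi-likelihood test (Benjamini-Hochberg), so a difference between the genotypes was not shown.

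*Myh3*, the embryonic isoform, showed KO groups apart. Its KO-empty libraries held 1.89 (17KR), 1.37 (33KR), 1.26 (64KR), 1.43 (61KR) and 1.39 (62KR) CPM per kb, and KO-DHT lay between 0.477 and 0.938 (median 0.817). The 2 groups did not overlap. The log2 fold change was -0.92 (SE 0.23), adjusted p 0.0104 by edgeR's quasi-likelihood test (Benjamini-Hochberg), just outside the threshold, with 6 of 6 KO-DHT libraries below the empty mean. Over 29 settings that adjusted p was between 0.00097 and 0.0362 and at or under 0.01 in 12. By edgeR's quasi-likelihood test (Benjamini-Hochberg) it passed when 1 WT library was left out, namely WT-empty 14KR (0.0034), 4KR (0.0081) or 35KR (0.0098) or WT-DHT 15KR (0.0083), 5KR (0.0089), 8KR (0.0081) or 50KR (0.0098). By the same test it passed in the fit of the KO groups alone, where *Myh3* was the 1 member called and *Myh8* missed. *Myh3* also passed with scaling without the members, with 10 counts in every library, by DESeq2 and by limma-voom. In WT the empty libraries held 2.19 (14KR), 0.865 (4KR), 1.27 (7KR), 0.907 (35KR) and 1.19 (49KR), and WT-DHT lay between 0.511 and 1.18 (median 0.726), overlapping. The WT log2 fold change was -0.66 (SE 0.23), adjusted p 0.0479 by edgeR's quasi-likelihood test (Benjamini-Hochberg), with 6 of 6 WT-DHT libraries below the empty mean. Over 29 settings it was between -0.80 and -0.39, with adjusted p 0.0187 to 0.237 by edgeR's quasi-likelihood test (Benjamini-Hochberg) or the other tools. WT-empty 14KR stood far above its group, and without it the value was -0.39. The adjusted p lay above 0.05 in 18 of the 29, so the call at 0.05 did not hold. The interaction was -0.27 (SE 0.32).

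*Myh7*, the slow isoform, had the largest fold change and the widest spread. Its KO-empty libraries held 33.4 (17KR), 52.6 (33KR), 67.6 (64KR), 79.5 (61KR) and 84.3 (62KR) CPM per kb, and KO-DHT lay between 6.34 and 41.2 (median 10.7). Of the KO-DHT libraries 5 of 6 lay below the lowest KO-empty library, and 40KR was the exception. The log2 fold change was -1.94 (SE 0.54), 26.0% of empty, with an adjusted p of 0.0217 by edgeR's quasi-likelihood test (Benjamini-Hochberg) (0.0054 to 0.0475 over 29 settings, at or under 0.01 in 2), and 6 of 6 KO-DHT libraries were below the empty mean. Without KO-DHT 40KR it was -2.46, adjusted p 0.0054 by edgeR's quasi-likelihood test (Benjamini-Hochberg). In WT the empty libraries held 13.4 (14KR), 76.3 (4KR), 28.6 (7KR), 55.3 (35KR) and 37.5 (49KR), and WT-DHT lay between 4.13 and 33.9 (median 14.2), with 39KR the lowest. WT groups overlapped, with 3 of 6 DHT libraries below the lowest empty library, and the log2 fold change was -1.32 (SE 0.53), adjusted p 0.0925 by edgeR's quasi-likelihood test (Benjamini-Hochberg), lower in 6 of 6. The interaction was -0.62 (SE 0.75). As a share of the 4 adult isoforms per kb, the *Myh7* mean was 0.502% in KO-empty and 0.137% in KO-DHT, a difference of -0.37 points (SE 0.09) with exact permutation p 0.0065, and 0.296% and 0.131% in WT, a difference of -0.16 points (SE 0.09) with exact permutation p 0.0931.

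*Myh7b* behaved like *Myh7* in sign. Its KO-empty libraries held 0.629 (17KR), 0.664 (33KR), 0.610 (64KR), 0.969 (61KR) and 0.793 (62KR) CPM per kb, and KO-DHT lay between 0.322 and 0.592 (median 0.449). The KO groups did not overlap. In WT the empty libraries held 0.451 (14KR), 1.05 (4KR), 0.569 (7KR), 0.584 (35KR) and 0.352 (49KR), and WT-DHT lay between 0.251 and 0.526 (median 0.316), overlapping. The log2 fold changes were -0.70 (SE 0.23) in KO and -0.77 (SE 0.23) in WT, with adjusted p 0.0484 and 0.0211 by edgeR's quasi-likelihood test (Benjamini-Hochberg), and 6 of 6 DHT libraries lay below the empty mean in each genotype. The WT value was at or under 0.01 in 3 of 29 settings (0.0060 to 0.131), by DESeq2 (0.0068) and, by edgeR's quasi-likelihood test (Benjamini-Hochberg), without WT-empty 49KR (0.0060) or WT-DHT 50KR (0.0064). Without WT-empty 4KR it was -0.47, adjusted p 0.131. The KO value had an adjusted p between 0.0166 and 0.145 over 29 settings by edgeR's quasi-likelihood test (Benjamini-Hochberg) or the other tools, above 0.05 in 15, so its call at 0.05 did not hold.

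Fast isoforms overlapped between empty and DHT. *Myh1* was 704.8 (14KR), 624 (4KR), 494 (7KR), 576 (35KR) and 753 (49KR) CPM per kb in WT-empty and between 549 and 1013 in WT-DHT (median 709). In KO-empty it was 850.4 (17KR), 641 (33KR), 1045 (64KR), 865 (61KR) and 642 (62KR), and in KO-DHT between 595 and 869 (median 682). The log2 fold changes had opposite signs, 0.27 (SE 0.16) in WT and -0.19 (SE 0.16) in KO, neither past the threshold, and the interaction was -0.45 (SE 0.22), unadjusted p 0.0544 and adjusted p 0.343 by edgeR's quasi-likelihood test (Benjamini-Hochberg). *Myh4* had -0.17 (SE 0.08) in WT, unadjusted p 0.0522, and -0.08 (SE 0.08) in KO. Scaling by library size alone gave -0.24 for *Myh4* in WT, adjusted p 0.0072 by edgeR's quasi-likelihood test (Benjamini-Hochberg) in that setting (0.0072 to 0.353 over 29). *Myh2* was between 199 and 464 CPM per kb over all spinalis libraries, with every pair of groups overlapping.

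Genotype in spinalis showed no called member. In empty-implant muscle edgeR's quasi-likelihood test called 0 of 7 against 4.25% of all genes (722, 298 higher and 424 lower), with 3 (*Myh1*, *Myh4*, *Myh8*) and 23.4% of all genes at an unadjusted p under 0.05. DESeq2 and limma-voom also called 0, with 3 members at that level. *Myh4* held 13265 (14KR), 13139 (4KR), 14915 (7KR), 12474 (35KR) and 13762 (49KR) CPM per kb in WT-empty and 11276 (17KR), 13214 (33KR), 11320 (64KR), 10191 (61KR) and 11790 (62KR) in KO-empty. Of the KO libraries 4 of 5 lay below the lowest WT library, and 33KR was inside the WT range. The log2 fold change was -0.23 (SE 0.08), adjusted p 0.0988 by edgeR's quasi-likelihood test (Benjamini-Hochberg). *Myh1* gave 0.36 (SE 0.16), adjusted p 0.185 by edgeR's quasi-likelihood test (Benjamini-Hochberg), with 5 of 5 KO libraries above the WT mean, and its mean share was 4.36% in WT and 6.39% in KO (exact permutation p 0.0397). *Myh8* gave 0.73 (SE 0.30), adjusted p 0.135 by edgeR's quasi-likelihood test (Benjamini-Hochberg), with 4 of 5 KO libraries above the WT mean, and 0.42 with an adjusted p of 0.412 by edgeR's quasi-likelihood test (Benjamini-Hochberg) without KO-empty 17KR. Under DHT edgeR's quasi-likelihood test called 0 members against 11.6% of all genes (1978, 872 higher and 1106 lower), with 0 at an unadjusted p under 0.05 by it, DESeq2 or limma-voom. For the interaction of genotype and DHT, at 0.05, it called 0 members against 3.24% of all genes (550, 228 higher and 322 lower), with 1 member (*Myh8*) and 15.1% of all genes at an unadjusted p under 0.05, while DESeq2 called 0 with 2 and limma-voom 0 with 0 at that level. By mean log2 CPM the order for *Myh7* was KO-empty, WT-empty, KO-DHT and WT-DHT, and for *Myh3* and *Myh8* KO-empty, WT-empty, WT-DHT and KO-DHT, where both neighbours of like treatment did not differ past the threshold.

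Slow partner genes, which make the troponins, tropomyosin, calcium pump and light chains of slow fibres beside *Myh7*, were counted as a list of 9. With DHT, 1 of 9 was lower in WT, where 11.3% of all genes passed, and 2 of 9 were lower in KO, where 4.62% did. The WT count is that of its background, and the medians were -0.97 and -1.47 beside -0.01 for all genes. At an unadjusted p under 0.05 edgeR's counts were 7 of 9 in WT and 8 of 9 in KO, beside 29.8% and 25.2% of all genes. *Casq2*, a calcium store protein, passed in both, at -0.70 in WT and -1.08 in KO. Its WT call was lost without WT-empty 49KR (adjusted p 0.0156 by edgeR's quasi-likelihood test (Benjamini-Hochberg)). Other genes named from lists in these paragraphs passed in every setting at the main threshold of their comparison, unless an exception is given. That is not claimed for the fibroblast markers *Dcn* and *Pdgfra*, named below. After ORX 1 of 9 was higher in each genotype, *Casq2*, beside 5.45% of all genes in WT and 5.57% in KO (medians 0.36 and 0.23 beside 0.01). DESeq2 also called 1 in each, and limma-voom 1 in WT and 0 in KO. Over 31 settings *Casq2* passed in 18 in WT and 13 in KO. Slow and atrial light chains, a list of 4, had 1 higher after ORX in each genotype (*Myl4*, 0.96 in WT and 1.01 in KO), and with DHT 1 lower in KO. With DHT in WT edgeR's quasi-likelihood test called 0 of the 4, with 3 at an unadjusted p under 0.05 (29.8% of all genes), and DESeq2 and limma-voom called 0.

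Fast partner genes counted 10 tested of 11 listed symbols, of which *Myl11* matched no gene in either muscle. After ORX, where 5.45% of all genes passed in WT and 5.57% in KO, 2 were higher in WT (*Mylpf*, 0.44, and *Pvalb*, 0.29) and 3 lower in KO, with *Myoz1* at -0.36. Their medians were 0.11 and -0.06 beside 0.01 for all genes. With DHT, where 11.3% of all genes passed in WT and 4.62% in KO, 2 were higher and 1 lower in WT, where *Myoz1* was 0.41, and 4 were higher in KO. Their medians were 0.01 and 0.24 beside -0.01 for all genes. Of 4 tested fast light chain and kinase genes, *Mylk4* was among the 2 higher with DHT in WT, at 1.25. Of the 11 folding and assembly factors of myosin, edgeR's quasi-likelihood test called 0 for ORX or DHT in either genotype. At an unadjusted p under 0.05 it had 2 (ORX in WT), 1 (ORX in KO), 4 (DHT in WT) and 3 (DHT in KO), beside 22.3, 24.5, 29.8 and 25.2% of all genes, and DESeq2 called 1 for ORX in WT and limma-voom 0. Of 6 tested myosin heavy chains of other tissues it called 0 after ORX (1 in WT and 2 in KO at an unadjusted p under 0.05, 0 by DESeq2 or limma-voom), and with DHT in WT 1 was higher and 1 lower (*Myh13*, of eye muscle, -0.83, adjusted p 0.0102 by edgeR's quasi-likelihood test (Benjamini-Hochberg) without WT-empty 7KR).

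Regulators of the myosin heavy chain genes, 25 transcription factors and cofactors, were counted in both experiments. After ORX 2 were higher and 1 lower in WT (5.45% of all genes passed) and 3 higher and 2 lower in KO (5.57%), and *Mafa*, a large Maf factor known for its part in type 2B fibres, was 0.83 (SE 0.09) in WT and 0.50 (SE 0.10) in KO. With DHT 4 were higher and 3 lower in WT (11.3% of all genes), with *Mafa* at -1.004 (SE 0.11), *Tbx15*, a factor of glycolytic fibres, at 0.54 and *Mef2c* at 0.41. In KO 2 were higher and 1 lower (4.62% of all genes). Whether the list differs from all genes was not tested. The interaction passed for *Mafa* (0.96, SE 0.15) and *Mef2c* (-0.44, SE 0.10), 2 of 25 beside 3.24% of all genes. At the alternative threshold of 0.01 the *Mef2c* interaction did not pass (adjusted p 0.0103 by edgeR's quasi-likelihood test (Benjamini-Hochberg)). Non-coding RNAs of the heavy chain loci, 2 tested of 6 listed, held *Myhas*, transcribed opposite to *Myh1*, at 0.36 (SE 0.06) after ORX in WT, and 2310065F04Rik with an interaction of 0.75 (SE 0.17) between genotype and DHT. That interaction did not pass 0.01 either (adjusted p 0.0102 by edgeR's quasi-likelihood test (Benjamini-Hochberg)). Genes of immature and denervated fibres, a list kept beside *Myh3* and *Myh8*, had 4 of 13 higher after ORX in WT and 3 in KO, beside 5.45% and 5.57% of all genes, with *Actc1* at 2.55 and 1.34. With DHT 1 of 14 was higher and 5 lower in WT (11.3% of all genes), with *Actc1* at -2.91, and 3 were lower in KO (4.62%), with *Ncam1* at -1.07. *Actc1* was not among the 3 in KO, and its interaction of genotype and DHT passed at 2.41 (SE 0.36), a sign opposite to that of *Myh8*, whose interaction did not pass. With empty implants *Actc1* was lower in KO than in WT in the main fit (-1.87, SE 0.27), while *Myh8* was not called (0.73, SE 0.30). Whether that *Actc1* call held in other settings is not given here. The genes of this list had a median of -0.85 in WT and -0.45 in KO with DHT.

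Markers of other cell types were counted beside the results on *Myh1* and *Myh8*. Of all genes, 5.45% passed after ORX in WT, 5.57% after ORX in KO, 11.3% with DHT in WT and 4.62% with DHT in KO, and at an unadjusted p under 0.05 the shares were 22.3, 24.5, 29.8 and 25.2%. Whether any list differs from these shares was not tested. After ORX, fibroblast markers (6) had 1 higher and 1 lower in WT and 1 higher in KO. *Lum* was 0.59 in WT and 0.57 in KO, and *Pdgfra*, lower in WT, was -0.23. Tendon markers (6) had 1 higher in KO (*Fmod*, adjusted p 0.0136 by edgeR's quasi-likelihood test (Benjamini-Hochberg) without KO-ORX 1). In KO 5 of 6 tendon markers had an unadjusted p under 0.05 by edgeR's quasi-likelihood test (24.5% of all genes), with 1 called by DESeq2 and by limma-voom. Their median in KO was 0.65 beside 0.01 for all genes. Macrophage and leukocyte markers (6) had 1 lower in WT. Of the other 7 lists in each genotype (41 genes; satellite cell, endothelial, adipocyte, smooth muscle, Schwann cell and erythroid markers, with tendon in WT or macrophage in KO) edgeR's quasi-likelihood test called 0 after ORX. At an unadjusted p under 0.05 these held 5 genes in WT and 4 in KO, and DESeq2 called 2 and 0 and limma-voom 0 and 0. Of the 5 in WT 3 were satellite cell markers (of 6), as were both DESeq2 calls, with a list median of 0.29 beside 0.01 for all genes. Summed satellite cell markers were 12.4 to 15.0 CPM in WT-sham, 14.6 to 18.9 in WT-ORX, 16.6 to 20.1 in KO-sham and 18.4 to 22.8 in KO-ORX, with *Vcam1* the most abundant gene. The summed level of the fibroblast markers was 1707 to 2525 CPM in WT-sham, 1582 to 2036 in WT-ORX, 1467 to 1991 in KO-sham and 1458 to 3373 in KO-ORX, with *Dcn* the most abundant gene. Summed tendon markers had medians of 488, 552, 329.8 and 690.4 CPM in the same order, with *Thbs4* the most abundant. With DHT in KO, where *Myh8* fell, fibroblast markers had 1 higher (*Dcn*, 0.51) and 1 lower (*Lum*, -0.98) of 6. They summed to 1439.8 to 2581 CPM in KO-empty and 1480.5 to 2041 in KO-DHT, with *Col3a1* most abundant. Of the other 8 lists of cell types (47 genes) edgeR's quasi-likelihood test called 0, with 9 at an unadjusted p under 0.05. DESeq2 called 1 of those and limma-voom 0. With DHT in WT 1 endothelial marker was higher, 1 adipocyte marker lower, 1 fibroblast marker higher and 1 lower. Satellite cell markers summed to 17.8 to 25.5 CPM in KO-empty and 17.3 to 21.7 in KO-DHT, with *Vcam1* most abundant. Other sums varied more. Macrophage and leukocyte markers summed to 91.8 to 321 CPM in KO-empty and 126 to 161 in KO-DHT (*Lyz2* most abundant), and erythroid markers to 99.9 to 704 and 153 to 217 (*Hbb-bs*), with KO-empty 61KR the highest of both. Adipocyte markers had medians of 917 and 549 CPM (*Cfd*). These sums were not tested. Skeletal muscle fibre markers (9) had 1 higher and 2 lower after ORX in WT, 2 lower after ORX in KO, and 2 higher and 1 lower with DHT in WT. With DHT in KO 0 of these 9 passed edgeR's quasi-likelihood test, with 4 at an unadjusted p under 0.05 and 0 by DESeq2 or limma-voom. The part of any other cell type in the results was not tested.

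Genes whose levels ran most like each member were found by the smaller of 2 Pearson correlations of log2 CPM, over 23 gastrocnemius and 22 spinalis libraries among 13447 genes. *Myh7* had the closest neighbours, the slow troponins *Tnni1* (r 0.937 and 0.994), *Tnnt1* (0.923 and 0.994) and *Tnnc1* (0.903 and 0.991), in gastrocnemius and spinalis. *Myh1* ran with *Mybpc1* (0.830 and 0.782), *Myh2* (0.741 and 0.722) and *Acadl* (0.853 and 0.707), and *Myh2* with *Myom3*, *Mybpc1* and *Myh1*. *Myh4* ran with *Cmya5* (0.812 and 0.837), *Ttn* and *Abcc9*, and *Myh7b* with *Atp2a2* (0.746 and 0.721), *Tnnt1* and *Myh7*. *Myh3* (*Zbtb7c*, 0.585 and 0.675) and *Myh8* (AC157910.6, 0.536 and 0.598) had looser neighbours. Between the developmental isoforms r was 0.777 in spinalis and 0.363 in gastrocnemius, and *Myh1* with *Myh4* had 0.288 in gastrocnemius and -0.43 in spinalis. The libraries share treatment and genotype differences, and nothing about shared function is drawn from these values.

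Promoters from RefSeq (GRCm38.p6, 250 bases before to 50 bases after each start, 32851 promoters of 27025 genes) matched all 7 members, with 8 entries. The 4 printed here belong to the cluster on chromosome 11 and are shown because they hold *Myh1* and *Myh8*, the members with a call, beside *Myh2* and *Myh4*, and because they share blocks of letters. Capitals mark 2 blocks, the longest stretches common to *Myh1*, *Myh2*, *Myh4* and *Myh8*, and to *Myh1*, *Myh4* and *Myh8*. Their presence in those promoters was therefore fixed by how they were found. A given stretch of 14 or 15 bases is rare by its length, so its absence from other promoters is a description only. The block TTCTAATTATATCC (14 bases) is in *Myh1*, *Myh2*, *Myh4* and *Myh8* and in no other promoter of the table on either strand (4 promoters, 0.0122%), starting 160, 125, 158 and 54 bases before the gene start. The block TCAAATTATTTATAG (15 bases) is in *Myh1*, *Myh4* and *Myh8* alone (3 promoters, 0.00913%), starting 216, 187 and 104 bases before it. All 4 are on the + strand, at chr11:67199852-67200151 (*Myh1*), chr11:67170777-67171076 (*Myh2*), chr11:67237562-67237861 (*Myh4*) and chr11:67276874-67277173 (*Myh8*).
Myh1: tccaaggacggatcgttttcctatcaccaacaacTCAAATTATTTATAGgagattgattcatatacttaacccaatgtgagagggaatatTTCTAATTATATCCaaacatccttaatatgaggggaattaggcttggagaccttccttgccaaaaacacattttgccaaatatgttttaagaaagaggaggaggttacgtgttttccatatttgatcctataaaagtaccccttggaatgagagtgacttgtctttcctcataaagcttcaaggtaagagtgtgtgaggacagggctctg
Myh2: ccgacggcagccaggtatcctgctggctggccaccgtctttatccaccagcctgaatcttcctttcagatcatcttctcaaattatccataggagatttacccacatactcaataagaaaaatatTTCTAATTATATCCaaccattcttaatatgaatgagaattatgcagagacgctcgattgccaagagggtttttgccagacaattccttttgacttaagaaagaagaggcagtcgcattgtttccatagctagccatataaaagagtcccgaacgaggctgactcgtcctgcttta
Myh4: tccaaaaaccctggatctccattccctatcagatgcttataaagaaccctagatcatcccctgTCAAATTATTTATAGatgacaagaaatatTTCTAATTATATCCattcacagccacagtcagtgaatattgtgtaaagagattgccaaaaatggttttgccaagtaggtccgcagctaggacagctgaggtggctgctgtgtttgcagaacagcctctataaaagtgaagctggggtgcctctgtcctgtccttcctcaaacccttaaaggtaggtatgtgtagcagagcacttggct
Myh8: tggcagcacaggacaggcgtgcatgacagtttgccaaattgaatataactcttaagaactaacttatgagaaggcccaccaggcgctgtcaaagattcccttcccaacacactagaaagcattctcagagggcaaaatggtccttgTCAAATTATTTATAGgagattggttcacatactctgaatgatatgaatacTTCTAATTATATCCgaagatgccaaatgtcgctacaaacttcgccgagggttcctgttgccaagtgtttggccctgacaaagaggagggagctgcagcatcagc

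Known motifs were searched in the same windows on both strands. The MEF2 consensus matched the promoters of *Myh1*, *Myh4* and *Myh8* and 3.19% of all promoters (1047), and in each of the 3 the match lay over the block of 15 bases. TATAAA matched 5 members and 13.6% of all promoters, and in *Myh1*, *Myh4* and *Myh8* 1 of its matches lay over the same block and the MEF2 match. That block is identical in the 3 promoters by its definition. The MEF2 and TATAAA matches inside it are thus 1 shared stretch, not separate matches to set against the share of all promoters. CANNTG, the E-box, matched 5 members, not *Myh1* or *Myh2*, and 72.3% of all promoters. AGAACA, a hexamer of the androgen response element, matched *Myh4* alone among the members, 42 bases before its start, and 19.0% of all promoters. A match is a description of letters, and nothing about the factors or the results above follows from it.

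Some counts could belong to more than 1 gene. Of windows of 150 bases in the longest transcript, 2.49% (*Myh1*), 2.06% (*Myh2*), 0.533% (*Myh8*) and 0.511% (*Myh4*) were identical to a window in another member, and none were in *Myh3*, *Myh7* or *Myh7b*. At 75 bases the same genes had 16.2, 16.3, 11.4 and 9.37%, and at 50 bases 26.1, 26.7, 19.9 and 18.6%. By CPM per kb the median of *Myh4* was between 19020 times (KO-empty) and 84550 times (KO-sham) that of *Myh8*. Whether reads of *Myh4* were counted to *Myh8* was not tested. Exons of other genes lie on the opposite strand of *Myh1* (*Myhas*), *Myh2* (9430073C21Rik), *Myh7* (*Mhrt*, Gm29015 and Gm31251) and *Myh7b* (*Trpc4ap*), and whether counting used the strand is not stated.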

How the data were processed

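The authors made stranded libraries of total RNA, and the deposited values are read counts per gene, used here as raw counts. The submitters' processing notes list STAR 2.7.1b, SAMtools 1.9, Picard 2.20.2 and featureCounts of Subread 2.0.0 with build GRCm39, and do not state the strand setting. Lengths, overlaps and symbols came from GENCODE M21 on GRCm38 by Ensembl identifier. Columns of the spinalis table carry codes (such as 17KR) that the labels do not, so they were matched to groups alone. Of the labelled samples 1 (KO-ORX) was not analysed here.

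Each table was fitted with edgeR 4.0.16 (R 4.3.3): TMM scaling, 4 group means and quasi-likelihood tests, with Benjamini-Hochberg adjustment over all its genes, at 0.01, or 0.05 for interactions. The low-count filter (0.5 CPM in at least 2 libraries) removed no gene of either table. The setting without a filter, counted among the 31 and 29 settings, therefore repeats the main fit. Log2 CPM used a prior count of 2. Shares were compared by two-sided exact permutation of libraries, adjusted over 32 tests at 0.05. Alternatives were DESeq2 1.42.0, limma-voom (limma 3.58.1), scaling by library size or without the members, filters of 10 counts in every library or none, fits of only the groups compared, a replicate block, other thresholds, other share denominators and lengths, and leaving out each library. The longest-transcript length was chosen after seeing the data. Python 3.11.15, numpy 2.4.6, pandas 2.3.3 and matplotlib 3.10.9 did the rest.

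All 7 members are reported. Of the lists of related genes and cell types, calls are counted, and at most 4 called genes per list and comparison are named, those with the smallest p. Likeness names the 3 genes with the highest smaller correlation, and for *Myh3* and *Myh8* only the first of them. The members and lists were chosen with earlier results of these data known.

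Replicate numbers of the gastrocnemius libraries were tested as a pairing. Between libraries of different groups with the same number (33 pairs) the mean correlation of residuals was 0.01 (-0.15 to 0.19), and with different numbers (165 pairs) -0.002. So numbers were not treated as pairs.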

Additional observations from a re-analysis of the deposited data

Results flagged for a closer look

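Among 88 checks of 1 member or share in 1 group, 3 libraries stood apart from the others of their group by Dixon's test at 95%. Chance alone picks out about 1 in 20 groups. *Myh3* in KO-sham 4 was the lowest of its group at -0.016 log2 CPM, with the next library at 1.28. The *Myh7* share of WT-sham 2 was the highest of its group at 0.3248%, with the next at 0.203%. *Myh3* in KO-DHT 63KR was the lowest of its group at 1.551 log2 CPM, with the next at 2.21. The causes were not tested.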

How the results depend on the processing

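Of the fold changes of members given one by one, 195 values under other settings were the same in call and sign, 8 gained a call, 3 lost one and 2 reversed sign. The 2 reversals, both under library-size scaling, were near 0: *Myh4* after ORX in KO at 0.002 and the *Myh1* interaction with ORX at 0.06. Of those given as counts, 295 were the same and 8 reversed, none larger than 0.076. All 96 share values were the same in call and sign, but no single share test could pass alone, so the unchanged calls say little. Members called after ORX in KO were 0 under library-size scaling, where 900 of 17514 genes were called. They were also 0 when only the groups compared were fitted, where 484 of 17386 genes were called. The ORX interaction called 127 genes with DESeq2 and 10 with limma-voom. DHT in WT called 1 member with DESeq2 (2301 of 16956 genes), 1 under library-size scaling (1768 of 16987) and 2 at threshold 0.05 (3078 of 16987). DHT in KO called 2 with DESeq2 (1201 of 16956 genes), 3 with limma-voom (726 of 16987) and 2 with scaling without the members (772 of 16987). It called 2 with 10 counts in every library (693 of 15018 genes) and 4 at threshold 0.05 (1840 of 16987). Genes called with DHT in KO were 1201 with DESeq2 and 498 when only the groups compared were fitted, which gave 289 for genotype in empty. With 1 library left out, 606 fold changes given one by one were the same, 10 gained and 13 lost a call, and 19 reversed sign. Of those given as counts, 869 were the same and 58 reversed, none larger than 0.287, and of the shares given as counts 790 were the same and 20 reversed, none larger than 0.237 points. The 19 reversals of fold changes given one by one were in *Myh4* after ORX in WT (-0.07 without WT-ORX 1 to 0.083 without WT-sham 1) and in KO (-0.172 without KO-sham 4 to 0.018 without KO-sham 1) and in the *Myh1* interaction with ORX (-0.123 without WT-sham 1 to 0.103 without KO-ORX 5). Members called were 0 to 1 after ORX in WT, 0 to 1 in KO, 0 to 1 with DHT in WT and 0 to 2 in KO. All genes called in the same order were 732 to 988, 589 to 1116, 1607 to 1960 and 533 to 870. Genes called ranged from 589 (without KO-ORX 4) to 1116 (KO-sham 5) after ORX in KO, from 2 (KO-sham 6) to 38 (KO-ORX 3) for the ORX interaction and from 450 (WT-empty 7KR) to 700 (WT-DHT 5KR) for genotype in empty. Share tests passing were 0 to 2, with 2 without WT-sham 2 or WT-sham 5.

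Library-size scaling moved the median of all genes after ORX in KO to 0.12 (log2), and it turned the genes called higher and lower from 348 and 627 to 707 and 193. It gave 422 and 354 after ORX in WT, 222 and 251 for genotype in ORX, 282 and 251 in empty, 771 and 997 with DHT in WT, 1295 and 687 for genotype in DHT and 284 and 231 for the DHT interaction. With the replicate block *Myh1* after ORX was -0.59 in WT and -0.65 in KO (edgeR, Benjamini-Hochberg adjusted p 0.00049 and 0.00044). Of 117 calls of listed genes, 59 passed in every setting, 58 were lost in at least 1 and 0 reversed sign.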
